A study of Mus musculus with 6 samples.

Results

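Mature T cells of the mouse thymus carried H3K4me3 in 4 of 8 regions of cytotoxic effector genes, in both the CD4 and CD8 lineage. These were the regions of the transcription factor genes Eomes and Tbx21, the perforin gene Prf1 and the receptor gene Il2rb. In CD4 Prf1 passed only narrowly, and which peak of the Tbx21 region belongs to that gene was not settled. The granzyme genes Gzmb and Gzma and the chemokine genes Ccl5 and Xcl1 held no enriched window in either lineage, although a weak cluster in Xcl1 passed in CD8 when the windows were shifted by 1 kb. The 8 genes were taken as fixed regions of 25 to 45 kb in mouse build mm9, and a read belonged to a region when its midpoint lay in it. These are 8 regions beside the 84832 tiles of 30 kb with reads into which the genome was divided for comparison. The cells were mature CD4+ T cells and mature CD8+ T cells from the thymus of C57BL/6 mice, with no genotype, treatment or age given in the sources used here. Micrococcal nuclease released mononucleosomes, whose DNA was sequenced after precipitation with an antibody against H3K4me3 or against H3K36me3, or with no antibody as input. The groups were CD4 H3K4me3, CD8 H3K4me3, CD4 H3K36me3, CD8 H3K36me3, CD4 input and CD8 input, with 1 library each. No value therefore has a replicate, no p-value is given, and every interval covers counting error only and compares libraries, not conditions.

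Cytotoxic T lymphocytes and natural killer cells kill by releasing granules that hold perforin, which opens the membrane of the target cell, and granzymes, proteases that then enter it. In CD8 T cells this programme is known to be switched on after antigen activation, under the T-box transcription factors Eomes and T-bet (the product of Tbx21) and under signals through the interleukin 2 and 15 receptor, whose beta chain is the product of Il2rb. H3K4me3 is a histone mark of active or poised promoters, and H3K36me3 is laid down over the bodies of genes while they are transcribed. The question was whether either mark was present over input at these genes before activation, and whether it differed between CD4 and CD8 cells. In such bulk samples, a mark in fewer cells and less mark per cell cannot be told apart.

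RefSeq promoter sequences were at hand for 6 of the 8 genes and are shown so that the CpG content of genes with and without H3K4me3 can be compared. Each line gives the 250 bases before the annotated start, 5′ to 3′, with CpG dinucleotides in capitals. The coordinates are of build GRCm38.p6 and cannot be laid on the mm9 positions used elsewhere. No entry was used for Ccl5 and Il2rb.
Eomes (chr9:118477939-118478188, plus strand): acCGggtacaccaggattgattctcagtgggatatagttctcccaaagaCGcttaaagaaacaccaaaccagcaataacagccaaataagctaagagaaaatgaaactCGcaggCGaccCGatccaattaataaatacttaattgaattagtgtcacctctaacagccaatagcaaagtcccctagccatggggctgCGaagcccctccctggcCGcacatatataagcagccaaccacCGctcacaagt
Tbx21 (chr11:97115332-97115581, minus strand): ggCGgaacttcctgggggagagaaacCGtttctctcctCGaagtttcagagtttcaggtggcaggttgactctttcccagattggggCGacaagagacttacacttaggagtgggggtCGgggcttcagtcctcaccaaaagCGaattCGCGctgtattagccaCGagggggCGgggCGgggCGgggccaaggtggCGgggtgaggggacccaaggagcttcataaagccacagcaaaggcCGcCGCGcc
Prf1 (chr10:61297586-61297835, plus strand): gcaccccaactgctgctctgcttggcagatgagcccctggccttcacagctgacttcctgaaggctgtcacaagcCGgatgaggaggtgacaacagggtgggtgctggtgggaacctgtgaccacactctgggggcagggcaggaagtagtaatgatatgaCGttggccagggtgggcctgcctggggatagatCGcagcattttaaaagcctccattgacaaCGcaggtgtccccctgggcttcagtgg
Gzmb (chr14:56262335-56262584, minus strand): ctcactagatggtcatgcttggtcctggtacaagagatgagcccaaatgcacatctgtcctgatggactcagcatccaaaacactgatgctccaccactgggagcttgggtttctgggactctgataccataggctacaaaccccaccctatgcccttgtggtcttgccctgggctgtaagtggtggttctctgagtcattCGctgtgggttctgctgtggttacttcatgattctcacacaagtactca
Gzma (chr13:113100982-113101231, minus strand): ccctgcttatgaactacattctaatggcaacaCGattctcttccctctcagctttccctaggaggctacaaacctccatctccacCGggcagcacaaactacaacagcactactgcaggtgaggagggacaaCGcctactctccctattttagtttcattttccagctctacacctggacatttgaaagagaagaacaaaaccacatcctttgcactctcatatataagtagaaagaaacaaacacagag
Xcl1 (chr1:164935523-164935772, minus strand): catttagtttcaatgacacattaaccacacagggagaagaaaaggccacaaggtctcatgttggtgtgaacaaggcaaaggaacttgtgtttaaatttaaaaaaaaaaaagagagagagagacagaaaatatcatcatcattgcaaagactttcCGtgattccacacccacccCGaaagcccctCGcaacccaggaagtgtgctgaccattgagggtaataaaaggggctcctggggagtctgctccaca

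The 3 promoters of genes whose regions held H3K4me3 had 8 CpG dinucleotides in Eomes, 16 in Tbx21 and 4 in Prf1. The 3 promoters of genes whose regions did not hold it had 1 in Gzmb, 3 in Gzma and 3 in Xcl1. Xcl1 passed as marked in CD8 with windows shifted by 1 kb, and in CD4 it did not. Prf1, the lowest marked gene, was thus 1 CpG above the highest unmarked ones, and no test was made over these 6 promoters. Relative to the number that their C and G content gives, the groups overlapped. This observed over expected ratio was 0.621 in Eomes, 0.721 in Tbx21 and 0.188 in Prf1, against 0.0622 in Gzmb, 0.263 in Gzma and 0.248 in Xcl1. The median over 32851 RefSeq promoters was 6 CpG dinucleotides, so Prf1 lay below the median and Eomes and Tbx21 above it. Of all promoters, 74.6% held fewer CpG dinucleotides than that of Tbx21, 57.0% fewer than that of Eomes and 37.8% fewer than that of Prf1. The corresponding share was 7.87% for Gzmb and 29.0% for both Gzma and Xcl1. The T-box motif TCACACC, read on both strands, was found in the Xcl1 promoter and in 3.33% of all promoters. The Runx motif TGTGGT was found 2 times in Gzmb and 1 time each in Prf1, Gzma and Xcl1, and in 14.0% of all promoters. The Ets motif GGAAGT was found 2 times in Prf1 and 1 time each in Tbx21 and Xcl1, and in 19.7% of all promoters. The second Runx motif, TGCGGT, was in none of the 6 windows and in 5.10% of all promoters.

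The precipitated H3K4me3 libraries held 10784658 reads in CD4 and 12136610 in CD8, the H3K36me3 libraries 6844546 and 6860729, and the inputs 10237817 and 10030065. The H3K4me3 libraries differed in 2 ways that touch the results. Away from enriched regions CD4 H3K4me3 had 19.2% of its input level and CD8 H3K4me3 1.20%. Distinct read positions made up 54.4% of CD4 and 31.4% of CD8 H3K4me3 reads, so counts are also given with 1 read per position where that matters. The labels were checked at the genes that define the lineages. At Cd4, H3K4me3 reads numbered 2200 in CD4 cells and 67 in CD8 cells, and at Zbtb7b, the helper lineage factor, 5871 and 65. At Cd8a and Cd8b1 they numbered 622 and 8718, and at Runx3, the cytotoxic lineage factor, 1134 and 5105. These loci were placed from general knowledge of mm9. Markers of natural killer, B and myeloid cells were not analysed here, so the part of such cells in the results was not tested.

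Levels are in RPM, reads scaled to library size. A 2 kb window was enriched for H3K4me3 if it held 20 reads or more and its RPM was 4 times the matched input or above, counting fewer than 3 input reads as 3. By this rule 4 of 8 regions (50%) held H3K4me3 in CD4 and the same 4 in CD8, against 15.1% of tiles in CD4 and 14.2% in CD8. The tiles are not centred on genes, as the regions are, so this gap says nothing particular about cytotoxic genes. The 4 regions held 10 enriched windows in CD4 and 9 in CD8 of 120 windows in all regions. These are 8.33% and 7.50% of the windows, against 1.87% and 1.71% over the genome.

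**Figure D1:**
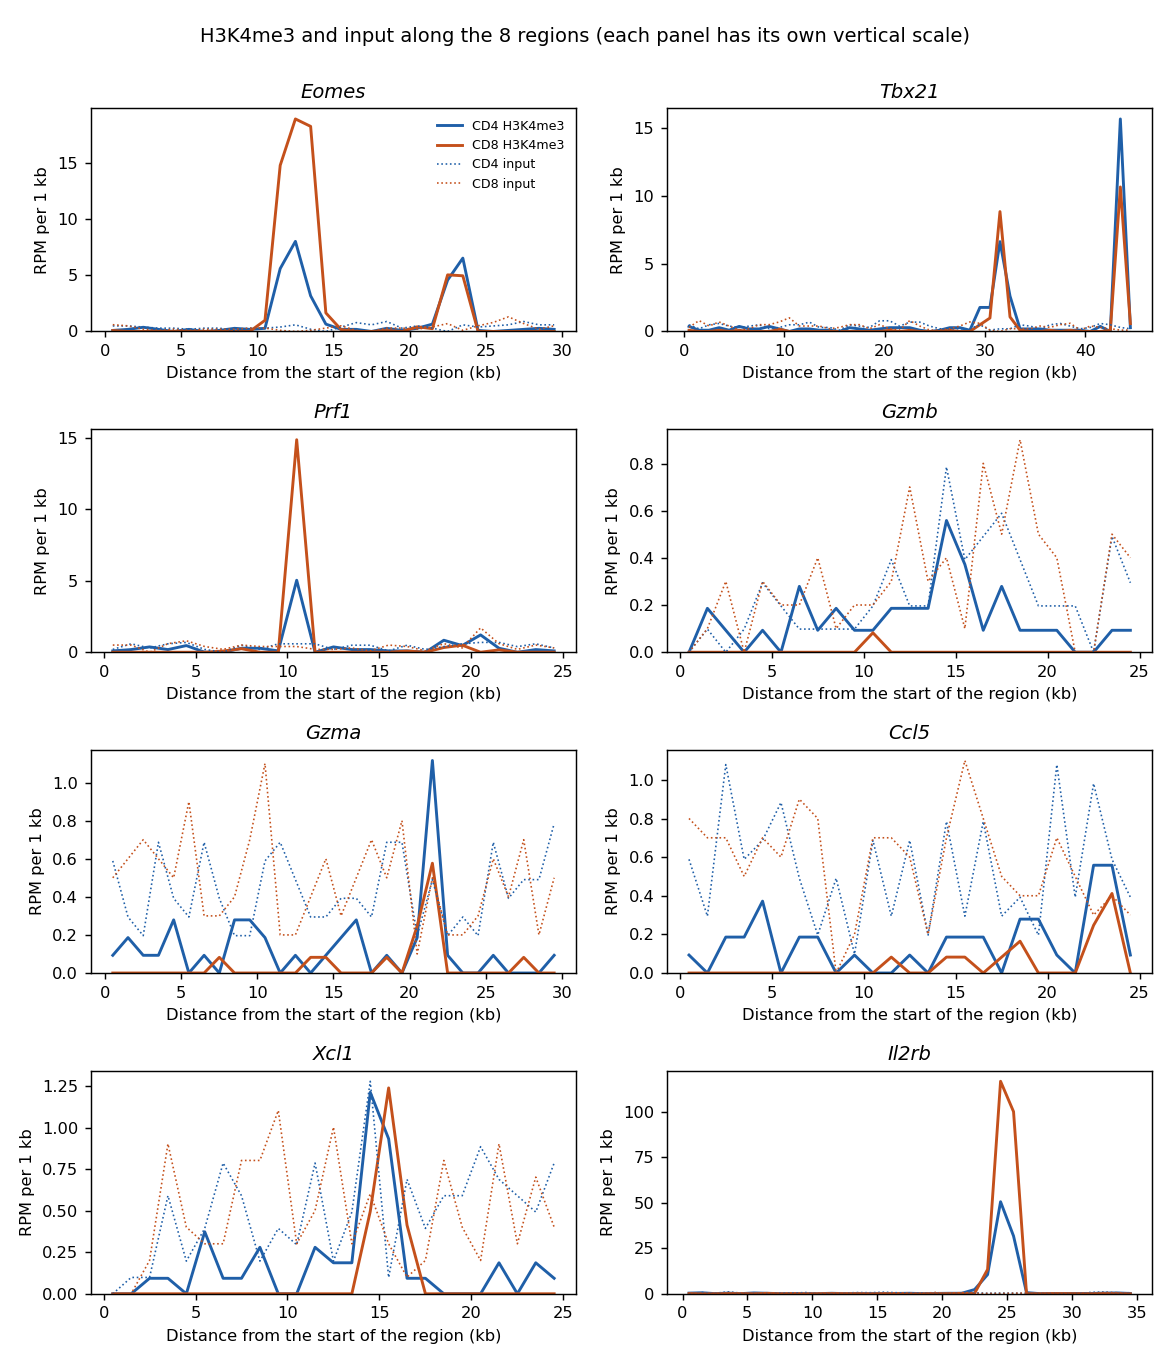
H3K4me3 (solid) and input (dotted) in RPM per 1 kb along each region, for CD4 cells (blue) and CD8 cells (orange), each from 1 library. Sharp peaks stand in Eomes, Tbx21, Prf1 and Il2rb, while in Gzmb, Gzma, Ccl5 and Xcl1 no 1 kb bin holds more than 15 H3K4me3 reads.

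Il2rb carried the strongest signal of the 8. The window chr15:78324001-78326000 held 882 CD4 and 2624 CD8 H3K4me3 reads, against 8 CD4 and 5 CD8 input reads. Over input this made 104.5-fold in CD4 cells and 432-fold in CD8 cells. Among all enriched windows, 90.1% in CD4 and 99.2% in CD8 had fewer reads than this one. The domain, a run of enriched 200 bp bins, spanned 2.8 kb in CD4 at chr15:78323001-78325800 and 2.4 kb in CD8 at chr15:78323401-78325800. Of all domains, 95.4% in CD4 and 94.9% in CD8 were narrower.

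Eomes held a pair of separate peaks. The first, at chr9:118386001-118388000, had 146 CD4 and 408 CD8 reads, against 10 CD4 and 1 CD8 input reads. The domain there was 0.8 kb wide in CD4 and 3.0 kb wide in CD8. The CD4 domain was wider than 32.4% of all CD4 domains, and the CD8 domain wider than 97.6% of all CD8 domains. Width counts the bins that pass the rule, so it also depends on the read level. Beyond the CD4 domain, the window chr9:118388001-118390000 was enriched in CD4 as well, with 41 reads against 3 input reads. The second peak lay across the boundary of a pair of windows, with 56 CD4 and 66 CD8 reads at chr9:118396001-118398000 and 71 CD4 and 58 CD8 reads at chr9:118398001-118400000. With the windows shifted by 1 kb, a single one, chr9:118397001-118399000, held 119 CD4 and 121 CD8 reads, against 6 and 8 input reads. At this peak the domain was 1.0 kb wide in CD4, at chr9:118398001-118399000, and 0.4 kb in CD8, at chr9:118397201-118397600. In unscaled counts CD8 held more reads at the first peak, and the counts were close at the second. Ratios scaled between the libraries are given below.

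Tbx21 also held a pair of peaks. The window chr11:96976001-96978000 had 99 CD4 and 120 CD8 reads, against 4 and 2 input reads. The window chr11:96988001-96990000, near the end of the region, had 171 CD4 and 136 CD8 reads, against 5 and 2 input reads. With no annotation of mm9 it is not settled which peak belongs to Tbx21. In the RefSeq gene order of GRCm38.p6 its neighbours are Osbpl7 and Tbkbp1. A further window beside the first peak, chr11:96974001-96976000, was enriched in CD4 with 38 reads and not in CD8 with 18.

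Prf1 held a single narrow peak. The window chr10:60760001-60762000 had 54 CD4 and 180 CD8 reads, against 12 and 6 input reads. The CD4 value was 4.27-fold over input, just past the 4-fold rule, and the CD8 value 24.7-fold. At a rule of 8-fold Prf1 no longer counted as marked in CD4. The domain was 0.4 kb wide in CD4 and 0.6 kb in CD8. In 8% of the region's length the window held 91.4% of the region's reads in CD8 and 45.8% in CD4. From the level away from enriched regions, background would make up 18.5% of the region's CD4 reads and 0.792% of its CD8 reads. A higher background lowers such a share, so these shares do not compare how spread the mark was.

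The granzyme and chemokine genes stood well below. Gzmb, a granzyme that activates caspases in the target cell, had 37 CD4 and 1 CD8 H3K4me3 reads over its whole 25 kb, against 62 CD4 and 78 CD8 input reads. From the level away from enriched regions, 12.5 reads would be counted there in CD4 and 1.14 in CD8. The single CD8 read is at background, and the CD4 reads, above background but below input, were spread, with at most 6 in any 1 kb. The window with the most CD4 reads had 8, beside 10 input reads.

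Ccl5, the gene of a chemokine that draws T cells and monocytes, had 41 CD4 and 14 CD8 H3K4me3 reads against 137 and 142 input reads. The background would give 27.7 and 2.07 reads. Its highest 2 kb window, at the end of the region, held 7 CD4 and 5 CD8 reads. Both stayed below the input of that window, which had 10 and 7 reads.

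Gzma, the gene of a tryptase-like granzyme, and Xcl1, the gene of a chemokine for cross-presenting dendritic cells, each held a small cluster of reads below the rule. In Gzma the window chr13:113890001-113892000 had 14 CD4 and 10 CD8 reads, beside 7 and 6 input reads. It held 66.7% of the CD8 reads of the region in 6.67% of its length. In Xcl1 the window chr1:166864001-166866000 had 23 CD4 and 21 CD8 reads, beside 14 and 9 input reads. It held 80.8% of the CD8 reads of the region in 8% of its length. Both clusters lay at the same place in both cell types. Background would give 0.0875 (Gzma) and 0.131 (Xcl1) CD8 reads there, and 1.41 and 2.83 CD4 reads. Windows with over 9 reads of a mark were left out of that background, so these windows lie above it by construction. Of all 2 kb windows with reads, 2.26% had at least as many CD8 reads as the Gzma window and 1.88% at least as many as the Xcl1 window. These shares are per single window, whereas each window named is the highest of its region, of 15 windows in Gzma and 12 in Xcl1. Relative to input, the Xcl1 window reached 1.56 in CD4 and 1.92 in CD8, and the Gzma window 1.90 and 1.37, all short of 4. With the windows shifted by 1 kb, Xcl1 passed in CD8 at chr1:166865001-166867000, with 20 reads against 4 input reads, 4.12-fold over input and just at both limits. In CD4 it did not pass there. The absence of H3K4me3 at Xcl1 in CD8 thus depends on where the windows are laid.

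**Figure D2:**
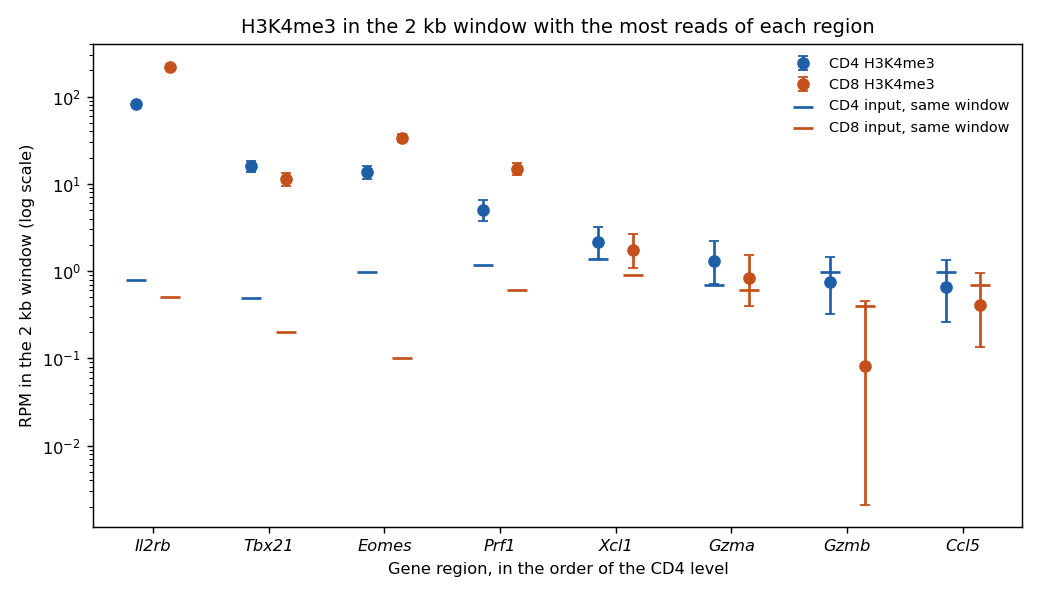
H3K4me3 in RPM on a log axis in the 2 kb window of each region with the most reads, for CD4 (blue) and CD8 (orange), with exact Poisson 95% intervals for counting error. Horizontal dashes give the input in the same window, and the points of Il2rb, Tbx21, Eomes and Prf1 lie above their dashes in both cell types.

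The order of the genes was taken from the read counts in these windows of equal length. For Tbx21 this is the peak near the end of the region, which may not belong to that gene. The other peak had 99 CD4 and 120 CD8 reads. With that peak Tbx21 would come below Eomes in CD4 and stay below Prf1 in CD8. In CD4 the order ran Il2rb 882, Tbx21 171, Eomes 146, Prf1 54, Xcl1 23, Gzma 14, Gzmb 8 and Ccl5 7 reads. Tbx21 and Eomes were not apart, at a ratio of 1.17 (95% interval 0.934 to 1.47), and neither were neighbours from Xcl1 down. Prf1 lay above Xcl1 by 2.35 times (1.42 to 4.01). In CD8 the order was Il2rb 2624, Eomes 408, Prf1 180, Tbx21 136, Xcl1 21, Gzma 10, Ccl5 5 and Gzmb 1. There Tbx21 came after Prf1, with a ratio of Prf1 over Tbx21 of 1.32 (1.05 to 1.67), and stood 6.48 times above Xcl1 (4.07 to 10.8). Neighbours from Xcl1 down were again not apart. With this Tbx21 peak the order of Prf1 and Tbx21 in CD8 rested on repeated reads. The Prf1 domain held 168 CD8 reads at 83 distinct positions, and the Tbx21 domain at chr11:96988201-96989000 held 128 at 87. At the other Tbx21 peak the domain chr11:96976201-96977000 held 95 CD8 reads at 58, so against that peak Prf1 stayed above by either count.

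For the comparison of the lineages, CD4 reads were divided by CD8 reads, and the median of this ratio in the 19376 windows that passed in both libraries was set to 1. A difference was called at 2-fold or more with an exact 99.9% interval that excluded 1, and printed intervals are at 95%. Scaling to total reads in place of the median lowers every H3K4me3 log2 ratio by 0.40, and directions that this turns are named. Over whole regions none of the 4 marked ones was called in either direction, while 25.6% of marked tiles were called higher in CD4 and 0.894% higher in CD8. The whole-region log2 ratios were -0.59 for Eomes (-0.78 to -0.41), 0.98 for Tbx21 (0.76 to 1.21), -0.16 for Prf1 (-0.50 to 0.18) and -0.78 for Il2rb (-0.88 to -0.68). That of Prf1 turned to 0.028 with 1 read per position and was -0.44 (-0.79 to -0.11), not called, with background subtracted. That of Il2rb was called with total-read scaling, at -1.18. Of the 10 windows enriched in either cell type, 1 (10%) was higher in CD4 and 2 (20%) were higher in CD8. Over the genome the same calls made up 25.0% and 5.08% of 24614 windows.

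The windows higher in CD8 lay at Eomes and Prf1. At Eomes the window chr9:118388001-118390000 had 41 CD4 and 241 CD8 reads, a CD4 level 0.254 times that of CD8 (0.178 to 0.355). Over the whole 3.0 kb CD8 domain of Eomes, 180 CD4 and 629 CD8 reads gave 0.427 times (0.360 to 0.505). With 1 read per position, the log2 ratio of this domain was -1.30 in place of -1.23. The bounds of that domain were set by CD8 reads, which favours CD8. Over the 0.8 kb CD4 domain of the same peak, 102 CD4 and 209 CD8 reads gave 0.729 times (0.570 to 0.928), not called. The strongest Eomes window, chr9:118386001-118388000, gave 0.534 times (0.439 to 0.647), also not called. At Prf1 the window named above gave a CD4 level 0.448 times that of CD8 (0.324 to 0.610). With 1 read per position its log2 ratio was -1.10 in place of -1.16. The calls at the Eomes and Prf1 windows held with 1 read per position, with background subtracted and with scaling to total reads.

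Il2rb was lower in CD4 by a margin that depended on how repeated reads were counted. In its strongest window the CD4 level was 0.502 times that of CD8 (0.465 to 0.542), a log2 ratio of -0.99 and just short of the call. With 1 read per position the log2 ratio was -0.44, and with total-read scaling -1.40, which was called. In the whole region only 30.9% of the 2810 CD8 reads had distinct positions, against 64.2% of the 1098 CD4 reads.

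The Tbx21 region, whose peaks were not assigned to the gene, went the other way as a whole. Its log2 ratio of 0.98 was not called. It was 0.62 with 1 read per position, 0.58 with total-read scaling, 0.85 with background subtracted and 0.75 in enriched windows only. Over all marked tiles the median log2 ratio was 0.22. The window chr11:96974001-96976000 gave a CD4 level 3.15 times that of CD8 (1.76 to 5.87) and was the window called higher in CD4. It rests on 38 and 18 reads, and the call was lost with 1 read per position (log2 1.24) and with total-read scaling (log2 1.25). The window at the first peak had a ratio of 1.23 (0.935 to 1.62), whose direction turned with total-read scaling. The second peak had a ratio of 1.88 (1.49 to 2.37), not called. The windows of the second Eomes peak were likewise not called, at 1.27 (0.871 to 1.84) and 1.83 (1.27 to 2.63). The direction of the first of them turned with 1 read per position and with total-read scaling.

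**Figure D3:**
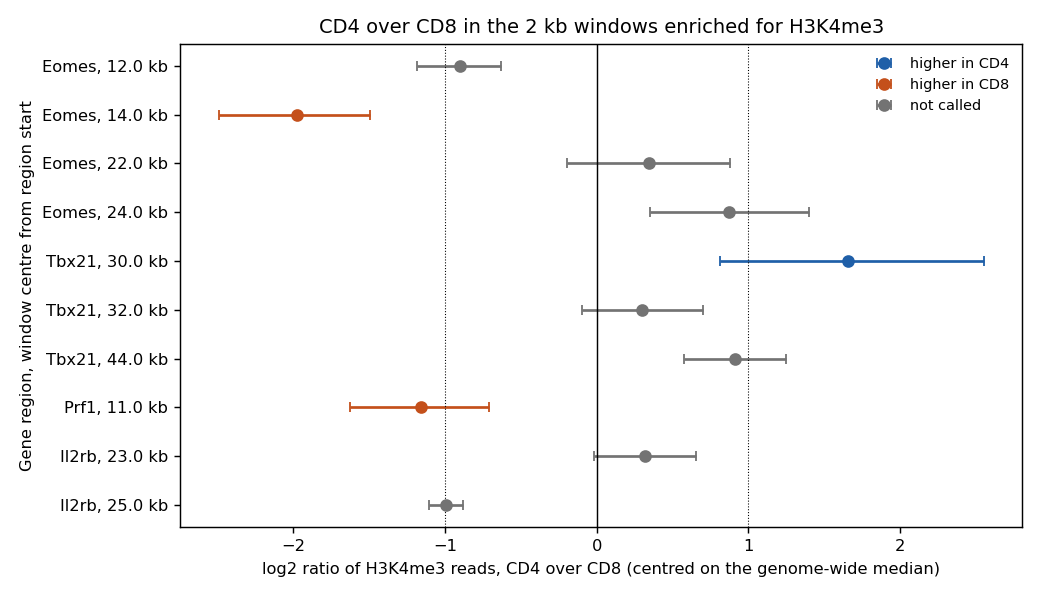
The log2 ratio of H3K4me3 reads, CD4 over CD8, with 95% intervals for counting error in the 10 windows of 2 kb enriched in either cell type, named by gene and distance of the window centre from the region start. Windows of Eomes at 14 kb and Prf1 at 11 kb are called higher in CD8, that of Tbx21 at 30 kb higher in CD4, and dotted lines mark a 2-fold difference.

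H3K36me3 was read in windows of 10 kb, with at least 20 reads and 2 times the input. In CD4 2 of 8 regions (25%), Gzmb and Il2rb, held such a window, against 16.8% of tiles. In CD8 4 of 8 (50%), Eomes, Prf1, Ccl5 and Il2rb, held one, against 16.6% of tiles. Tbx21, Gzma and Xcl1 held none. With windows shifted by 5 kb the CD8 regions were Eomes, Gzmb and Il2rb, so the CD8 calls at Prf1, Gzmb and Ccl5 depend on where the windows are laid. With windows of 5 kb, chosen after seeing the data, Prf1 also passed in CD4, at 2.32-fold and 2.27-fold over input in a pair of windows. Of the 7 windows enriched in either cell type, 0 were called higher in CD4 and 0 higher in CD8, against 2.08% and 0.840% of windows over the genome. Of the 5 whole regions with the mark, 0 were called in either direction, against 1.23% of marked tiles higher in CD4 and 0.447% higher in CD8. With background subtracted, Ccl5 was called higher in CD8, at a log2 ratio of -1.49 in place of -0.63.

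Il2rb had a broad H3K36me3 block beside its H3K4me3 peak. The window chr15:78310001-78320000 held 175 CD4 and 198 CD8 H3K36me3 reads, against 51 and 32 input reads. CD4 cells stood at 5.19-fold over input and CD8 cells at 9.13-fold. The reads lay on 1 side of the peak. The 10 kb before the CD4 domain held 178 CD4 and 201 CD8 reads, and the 10 kb after it 29 and 25. The read ratio of the window was 0.911 (0.739 to 1.12), and the inputs differed as well. Over the whole region they held 167 CD4 and 113 CD8 reads, a ratio of 1.45 (1.13 to 1.86).

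At Eomes H3K36me3 lay after the first H3K4me3 peak. The window chr9:118390001-118400000 had 38 CD4 and 72 CD8 reads, against 47 and 31 input reads. CD4 cells stood at 1.22-fold over input and CD8 cells at 3.43-fold, so the window counted as enriched in CD8. The CD4 level was 0.544 times that of CD8 (0.357 to 0.817), which was not called and which with background subtracted was called, at a log2 ratio of -1.17. In the 10 kb after the CD8 domain the fold over input was 1.20 in CD4 (0.749 to 1.92) and 3.72 in CD8 (2.39 to 5.93). The 10 kb before it held 24 CD4 and 25 CD8 reads, against 30 and 23 input reads.

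Prf1 had H3K36me3 over the window of its peak. The window chr10:60760001-60770000 held 40 CD4 and 63 CD8 H3K36me3 reads, against 42 and 31 input reads. CD4 cells stood at 1.44-fold and CD8 cells at 3.0-fold over input. The CD4 level was 0.654 times that of CD8 (0.429 to 0.988), not called. The Eomes and Prf1 windows both passed the rule in CD8 and not in CD4, which favours a lower CD4 level there. In them CD4 levels of H3K36me3 lay below CD8, with neither difference past the call. The other Prf1 window, chr10:60750001-60760000, passed in neither cell type, with 44 CD4 and 38 CD8 reads, a ratio of 1.19 (0.756 to 1.89). Over whole regions the log2 ratio was -0.44 (-0.85 to -0.047) at Eomes and -0.31 (-0.70 to 0.078) at Prf1, neither called.

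Gzmb, which had no H3K4me3, had some H3K36me3 reads above input. The window chr14:56870001-56880000 held 45 CD4 and 38 CD8 reads, against 24 and 30 input reads. CD4 cells stood at 2.83-fold and CD8 cells at 1.87-fold over input. With windows shifted by 5 kb both passed, at 4.95-fold in CD4 and 2.79-fold in CD8. The window before it, chr14:56860001-56870000, was enriched in CD4 with 22 reads against 13 input reads, but it lies across the edge of the region, and 14 of these 22 reads fall outside. In 1 bin of 1 kb both cell types had 12 reads against 2 input reads each. The nearest genes in the RefSeq order of GRCm38.p6 are Gzmc and Atp12a, and which gene the reads belong to was not settled.

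Ccl5 itself had little H3K36me3. Its whole region held 40 CD4 and 64 CD8 reads, or 0.441 of the input level in CD4 (0.302 to 0.632) and 0.665 in CD8. The enriched CD8 window, chr11:83320001-83330000, lies across the edge of the region, and 71 of its 89 CD8 reads fall outside. Gzma reached 0.653 of input in CD4 and 0.682 in CD8, and Tbx21 0.832 and 0.734. Xcl1 reached 0.597 in CD4 (0.420 to 0.838) and 1.01 in CD8 (0.754 to 1.36). Away from enriched regions the H3K36me3 level was 31.7% of input in CD4, within the interval of Ccl5 in CD4, and 32.5% in CD8.

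**Figure D4:**
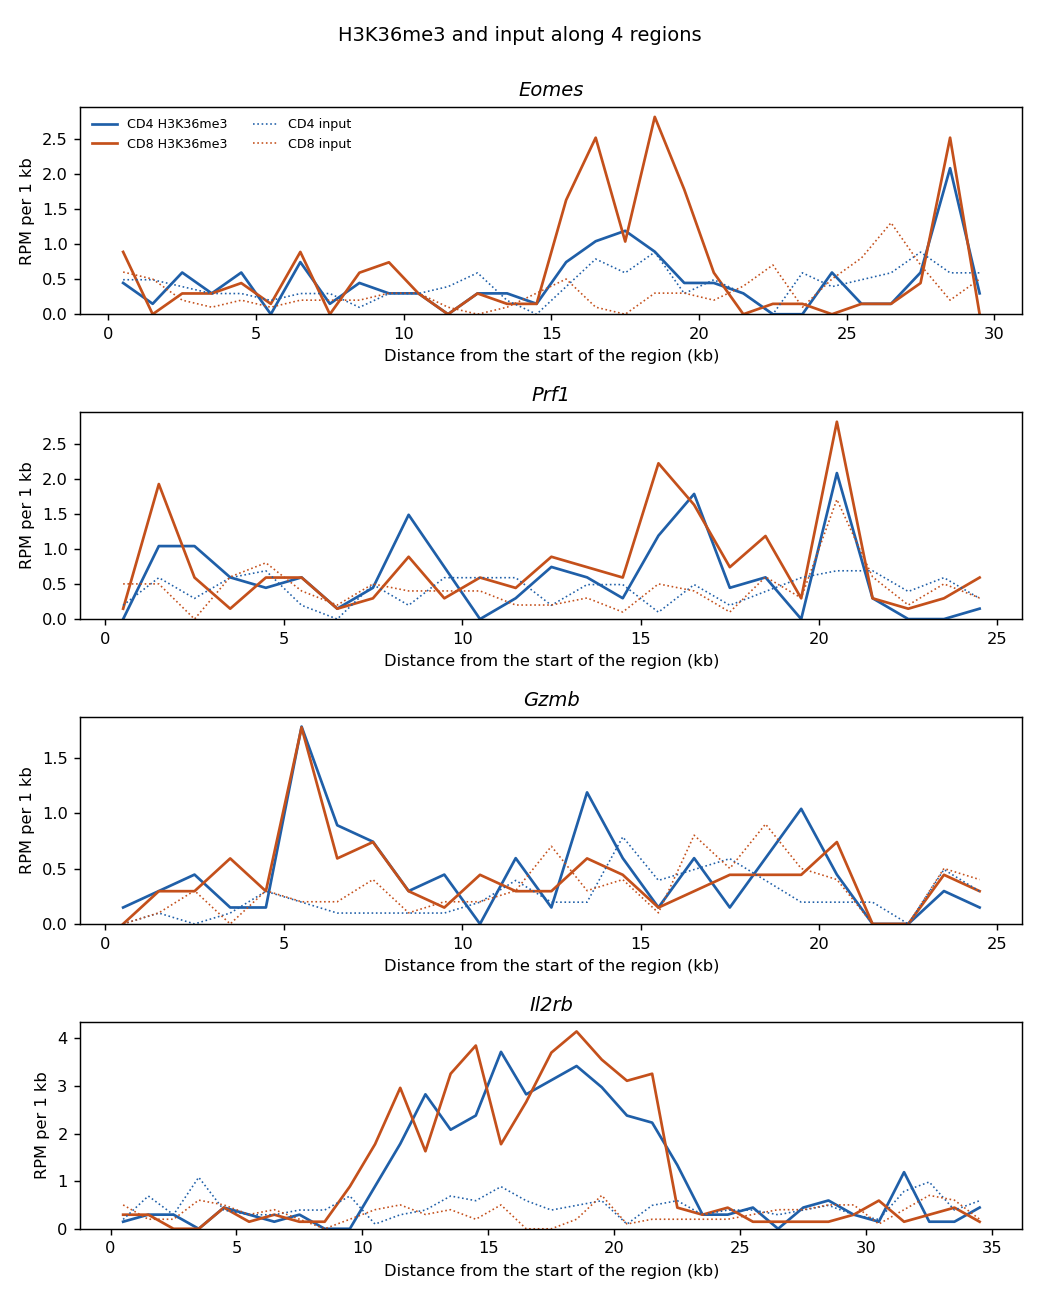
H3K36me3 (solid) and input (dotted) in RPM per 1 kb along 4 regions, for CD4 (blue) and CD8 (orange). Il2rb shows a block in both cell types over the part before its H3K4me3 peak, and Eomes shows a rise in CD8 after its first peak.

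**Figure D5:**
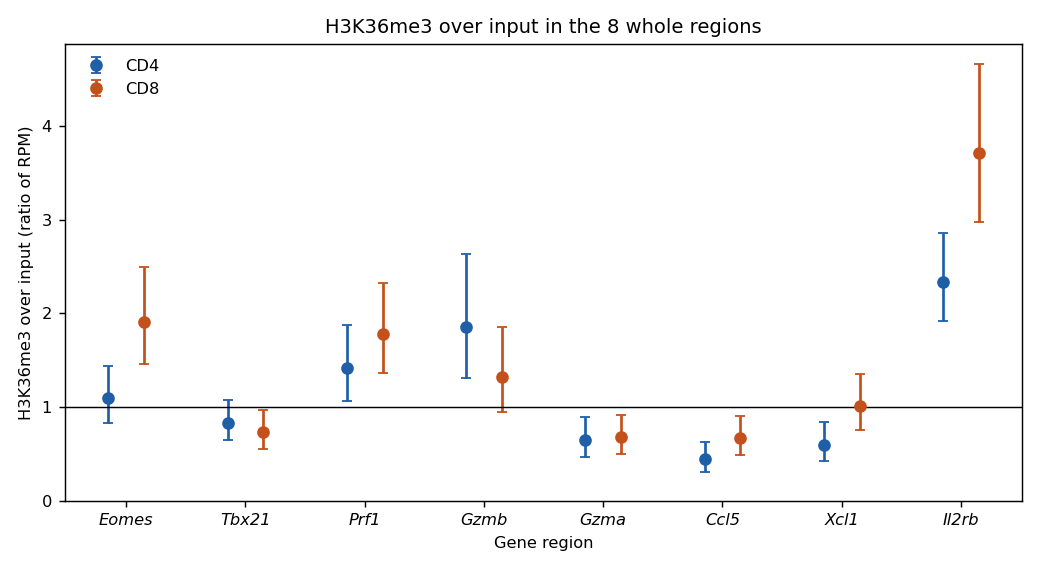
H3K36me3 over input as a ratio of RPM in the 8 whole regions, CD4 (blue) left of CD8 (orange), with exact conditional 95% intervals for counting error. Il2rb lies highest at 2.33 in CD4 and 3.71 in CD8, and Tbx21, Gzma and Ccl5 lie below 1 in both.

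Of the 4 regions with H3K4me3 in both cell types, that of Tbx21 was the one with H3K36me3 in neither, 1 of 4 (25%), against 40.4% of tiles with H3K4me3 in both. The marks of the Tbx21 region thus differed from those of the Il2rb region, where both marks were present in both cell types. Tbx21 had 98 CD4 and 81 CD8 H3K36me3 reads over its 45 kb, against 178 and 163 input reads. Eomes and Prf1 had H3K4me3 in both and an enriched 10 kb window of H3K36me3 in CD8.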

How the data were processed

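The deposited files list the start and end of each aligned read, 1 read per line with no strand or score, and every read was 33 bp wide. The build is mm9, per the submitters' processing notes. For the aligner and the handling of repeated reads, no source used here gives a statement. Counting used the midpoint of each read on the autosomes, X and Y, and positions are printed 1-based as counted from the deposited starts. The regions are given positions and were not checked against an annotation of mm9. Members, rules and thresholds were chosen with earlier results of these data known. All 8 genes are named. Windows named are the strongest H3K4me3 window, the windows called different and, for H3K36me3 and domains, those enriched in a region. Further windows were picked with their values in view. A window belongs to a region when its centre lies in it.

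RPM scales reads to the kept reads of a library. A domain needed 20 reads or more and joined 200 bp bins at 4 times the input where they lay no further than 400 bp apart. Background came from 892185 windows of 2 kb, none within 10 kb of a window holding over 9 reads of a mark. Intervals are exact (Clopper-Pearson, conditional on the sum, or Poisson). Without molecular identifiers, repeated reads may stem from 1 molecule. Alternatives were 1 read per position, other folds and minimum reads, pooled inputs, shifted windows, total-read scaling, background subtraction and wider domain gaps. Other genes of the cytotoxic programme were not analysed here. Tools were SciPy 1.17.1, NumPy 2.4.6, matplotlib 3.10.9 and pandas 2.3.3 under Python 3.11.15.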

Additional observations from a re-analysis of the deposited data

How the results depend on the processing

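H3K4me3 was found in the same 4 regions in both cell types with 1 read per position, at a minimum of 50 reads and with pooled inputs. At 8-fold over input the CD4 regions numbered 3, without Prf1, and with windows shifted by 1 kb the CD8 regions numbered 5, with Xcl1. For H3K36me3, the CD4 regions numbered 1, Il2rb, at 3-fold over input and 1 at a minimum of 50 reads. The CD8 regions numbered between 3 and 5 over all alternatives, and Eomes and Il2rb were among them in each. With windows of 5 kb the CD4 regions numbered 3, with Prf1 added. Gzmb joined the CD8 regions with pooled inputs, with windows shifted by 5 kb and with windows of 5 kb, an alternative chosen after seeing the data, as were windows wholly inside a region, which dropped Ccl5. H3K4me3 windows higher in CD4 numbered 0 with 1 read per position, 0 at a minimum of 50 reads and 0 with total-read scaling. Those higher in CD8 numbered 1 at a 3-fold difference and 4 with total-read scaling. Whole-region log2 ratios of CD4 over CD8 that became called were H3K4me3 of Il2rb with total-read scaling (-1.18), H3K4me3 of Prf1 in its enriched window alone (-1.16) and H3K36me3 of Ccl5 with background subtracted (-1.49). Single windows and domains that became called were H3K36me3 of Eomes at chr9:118390001 with background subtracted (-1.17) and, with total-read scaling, H3K4me3 of Eomes at chr9:118386001 (-1.31), of Il2rb at chr15:78324001 (-1.40) and of both Il2rb domains (-1.32 and -1.35). Calls lost were the Tbx21 window at chr11:96974001 and, with 1 read per position, the CD4 domain of Prf1 (-0.94). H3K4me3 of the whole Prf1 region was -0.16 and turned to 0.028 with 1 read per position. Uncalled ratios near 0 also turned. With 1 read per position these were the Eomes window at chr9:118396001 (-0.22), the Eomes domain at chr9:118397201 (-0.35) and the Tbx21 domain at chr11:96976201 (-0.047). With total-read scaling they were the same 3 (-0.062, -0.14 and -0.37), the Il2rb window at chr15:78322001 (-0.083), the Tbx21 window at chr11:96976001 (-0.10) and H3K36me3 of the Il2rb window at chr15:78320001 (-0.020), which with background subtracted was -0.025. The alternatives for the ratios in domains were chosen after seeing the data. The cause was not tested, except that stricter folds and minima lower counts by construction. Of 161 values under an alternative, 132 kept direction and call or stayed within 1.5 times. No paired analysis was possible because each group has 1 library. At these depths the absence of H3K4me3 at Gzmb, Gzma, Ccl5 and Xcl1 means only that it was not detectable by the rule used.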

Other observations

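Beyond the Ccl5 region, the 10 kb before it held 171 CD4 and 195 CD8 H3K36me3 reads against 42 and 38 input reads, which is 6.15 times the input in CD4 (95% interval 4.37 to 8.84) and 7.58 times in CD8 (5.33 to 11.0). H3K4me3 reads there numbered 17 in CD4 and 0 in CD8. On the other side of the region the 10 kb after it held 14 CD4 and 19 CD8 H3K36me3 reads against 51 and 56 input reads. The protein-coding neighbours of Ccl5 in the RefSeq order of GRCm38.p6 are Heatr9, with Taf15 beyond it, and Ccl9, and which gene the block covers was not settled without an annotation of mm9. The 10 kb on each side of Gzma held 0 CD8 H3K4me3 reads, as did those on each side of Xcl1, against 7 and 6 CD4 reads at Gzma and 5 and 15 at Xcl1.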
